A study of Mus musculus with 12 samples.

Results

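Tumours 3 days after doxycycline removal were compared with control muscle, the 3 arrays of each group being set against each other over 19937 genes. The study concerns YAP1, the growth-promoting effector that the Hippo kinase pathway holds in check, in rhabdomyosarcoma, a soft tissue cancer whose cells carry features of developing skeletal muscle. All animals that gave cells or control tissue were C57BL/6 mice carrying Myf5Cre, R26-LSL-rtTA and the transgene Col1a-Teto-hYAP1 S127A. In them Cre driven from the Myf5 gene, which is active in muscle precursors, lets cells make the doxycycline-dependent activator rtTA, and doxycycline then switches on a human YAP1 with the S127A change. Interstitial cells of hindlimb muscle, taken from donors that had 4 weeks of doxycycline, were grafted into the calf muscle (gastrocnemius) of NOD/SCID hosts, themselves given doxycycline, and grew into tumours. NOD/SCID mice lack mature B and T cells and keep macrophages and other innate cells. The day 3 group (OFF3, 3 arrays) came from tumours of hosts whose doxycycline had been stopped 3 days before. The control group (CTL, 3 arrays) was hindlimb muscle of mice of the same genotype that never received doxycycline, with no graft and no NOD/SCID host. The 6 arrays were part of a set of 12, whose other groups were tumours still on doxycycline (TUM, day 0) and tumours 6 days after its removal (OFF6). The labels do not say whether tumours or muscles came from separate animals, so a p-value here speaks for the spread between samples, which may be technical.

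Skeletal muscle fibres are built from sarcomeres of myosin and actin filaments, run on glycogen, creatine phosphate and mitochondria, and contract when calcium is released inside them. As precursor cells turn into fibres they leave the cell cycle, switch on MyoD family factors, fuse, and first make embryonic and perinatal isoforms of the contractile proteins before adult isoforms replace them. Regenerating muscle passes through the same stages, with macrophages, fibroblasts and new matrix around the young fibres. The comparison with control muscle places the tumours, soon after the YAP1 transgene lost its inducer, against that adult end point. Because each graft sat inside host muscle, the shares of tumour cells, host fibres and host stroma in the RNA cannot be told apart, and in bulk tissue neither can fewer cells of a type and less RNA per cell. Graft, host strain and doxycycline history also differ between the groups and cannot be told apart from the tumour itself. Y-linked genes differed too, as given below, so a difference in the sex of the mice cannot be told apart from the tumour either.

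Throughout, a level is a log2 intensity of a gene's brightest probe set, a difference is the mean OFF3 level minus the mean CTL level in log2 units with its standard error (± SE, 3 arrays against 3), and a gene is called higher or lower where the limma p-value adjusted over all genes by Benjamini and Hochberg lay under 0.05. The standard error rests on a spread pooled over the 4 groups, so it also holds the spread of the TUM and OFF6 arrays. The medians of the deposited linear intensities ran from 86.7 to 93.0 over the 12 arrays. On the first principal component of the levels the CTL arrays lay at -100.9, -98.7 and -96.8, and the OFF3 arrays at 34.7, 30.0 and 20.6. OFF3 replicate 3 thus lay nearest the control muscle, and without it 5716 genes were called higher and 8319 lower. The labelled tissue was borne out by its defining markers in the control muscle. Acta1, Ckm, Myh4, Tnnt3, Pvalb and Ryr1, which encode fibre proteins, had CTL mean levels of 13.44, 13.37, 13.04, 13.03, 13.09 and 12.76, where the brightest level of any probe set on an array lay between 13.61 and 13.83.

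The day 3 tumours differed from adult muscle in most genes that were measured, mostly by less than 2-fold. Of 19937 genes, 13910 (69.8%) were called, 5657 (28.4%) higher and 8253 (41.4%) lower in OFF3. The split between directions moved with the scaling of the arrays. It was 40.7% higher among called genes on the deposited values, 51.1% (6065 higher, 5805 lower) after cyclic loess, and 27.6% (4665 higher, 12243 lower) with each array centred on its median. The median difference over all genes was -0.12 on the deposited values, 0.00 after loess and -0.30 after centring. Gene lists below are to be read beside this median, and their counts beside the shares of all genes called (28.4% higher, 41.4% lower). Among genes above the median level, 4672 were called higher and 3445 lower, and among those below it 985 higher and 4808 lower. Many of the calls were therefore small falls of dim genes, whose median difference was -0.18.

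By size, 2297 genes (11.5%) were called and at least 2-fold higher, and 1469 (7.37%) at least 2-fold lower. At least 4-fold, there were 746 (3.74%) higher and 379 (1.9%) lower. At least 16-fold, there were 49 (0.246%) higher and 12 (0.0602%) lower, and no gene of the 19937 reached 64-fold. The OFF3 and CTL arrays did not overlap in 14437 genes (72.4%), 5849 (29.3%) with all OFF3 arrays above and 8588 (43.1%) with all below. For 10333 genes (51.8%) the 95% confidence interval of the difference lay within 1.5-fold either way, and for 3282 of the 9968 genes above the median level (32.9%). The 8 brightest of these were mostly small noncoding RNAs and ribosomal protein genes used by every cell, such as Rn7sk (0.18 ± 0.05), Rps6 (0.06 ± 0.07), Rpl9 (0.42 ± 0.06) and Fth1, the ferritin heavy chain (-0.04 ± 0.05), together with the muscle actin Acta1.

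**Figure D1:**
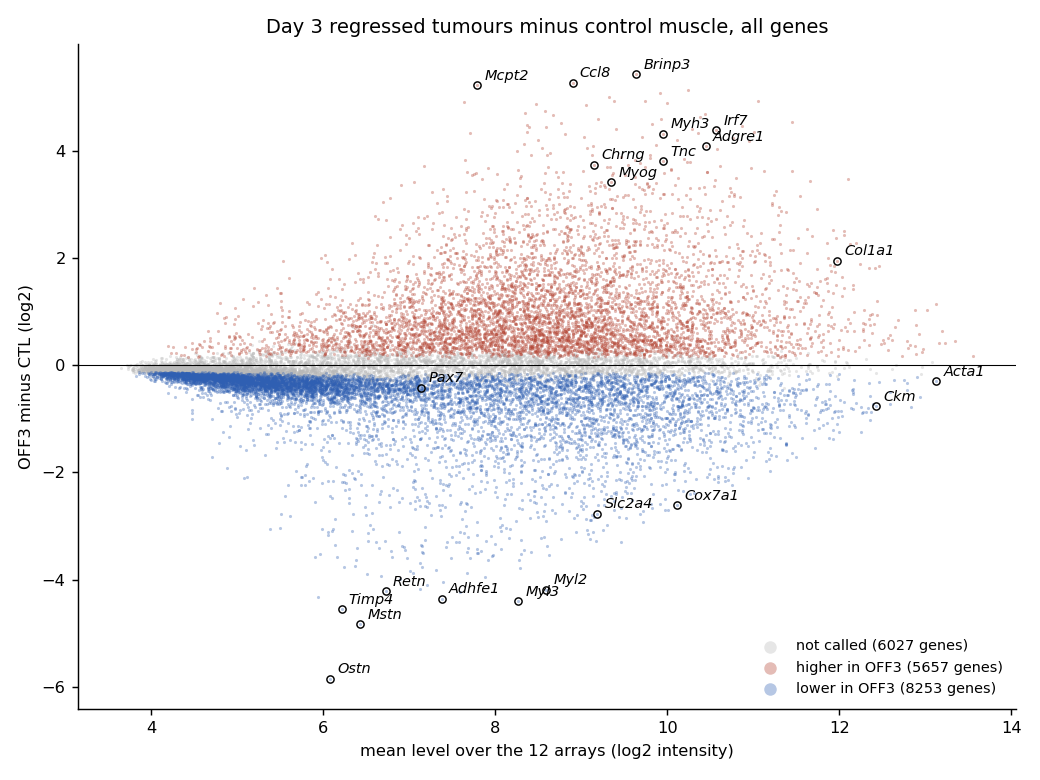
Difference OFF3 minus CTL (log2, vertical axis) against the mean level over the 12 arrays (log2 intensity, horizontal axis) for all 19937 genes, with genes called higher in red, called lower in blue and not called in grey. The circled genes include Ostn at -5.85 and Brinp3 at 5.42, the largest fall and rise of all 19937 genes, and dim genes on the left lie mostly just below 0.

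Among the genes furthest below control muscle were secreted and contractile products of the fibre. Ostn, which encodes the muscle-secreted peptide osteocrin (musclin), had levels of 10.42, 10.56 and 10.47 on the CTL arrays and 4.72, 4.53 and 4.66 on the OFF3 arrays. The groups were far apart and the OFF3 arrays lay close together, with a difference of -5.85 ± 0.07 (57.6-fold lower, limma adjusted p = 5.76e-14). Mstn encodes myostatin, the brake on muscle growth made by fibres, and its levels were 10.40, 10.52 and 10.49 on the CTL arrays and 5.49, 5.40 and 6.03 on the OFF3 arrays. OFF3 replicate 3 was the highest of the day 3 arrays and still lay below every control array, and the difference was -4.83 ± 0.18 (28.5-fold lower, limma adjusted p = 1.62e-10). The others of the 12 largest falls were Timp4, a metalloproteinase inhibitor (-4.55 ± 0.09), the slow myosin light chains Myl3 (-4.40 ± 0.15) and Myl2 (-4.19 ± 0.28), the alcohol dehydrogenase family gene Adhfe1 (-4.35 ± 0.07), the carboxylesterase Ces1d (-4.32 ± 0.11), Tlcd4 (-4.23 ± 0.13), the adipokine resistin Retn (-4.22 ± 0.12), the sterol-binding protein Osbpl6 (-4.19 ± 0.11), the phospholipase Plcd4 (-4.11 ± 0.18) and the lipid transporter Abcb4 (-4.05 ± 0.09). All 12 genes were lower in every OFF3 array than in any CTL array, as the choice of these genes required.

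Immune and matrix products made up most of the far end above control muscle. Brinp3, a gene best known in the nervous system, had levels of 5.27, 5.46 and 5.99 on the CTL arrays and 11.08, 10.92 and 10.99 on the OFF3 arrays. The difference of 5.42 ± 0.14 (43.0-fold higher, limma adjusted p = 8.54e-12) was the largest rise of all 19937 genes. Ccl8, a chemokine that draws monocytes, read 5.63, 5.85 and 5.90 on the CTL arrays and 11.14, 11.09 and 10.96 on the OFF3 arrays, a difference of 5.27 ± 0.36. The error of Ccl8 also holds the spread of the OFF6 arrays, whose SD was 1.05 against 0.09 on the OFF3 arrays. Gzmd, a granzyme of cytotoxic cells, had levels of 4.06, 4.20 and 4.73 on the CTL arrays and 9.73, 9.41 and 8.55 on the OFF3 arrays. The day 3 arrays of Gzmd spread more than those of the other 11 genes, replicate 3 being lowest, and the difference was 4.90 ± 0.25. The remaining rises among the largest 12 were Mcpt2, a mast cell protease (5.22 ± 0.09), Glipr1 (5.14 ± 0.16), the macrophage-associated membrane proteins Ms4a7 (5.08 ± 0.12), Ms4a4c (4.92 ± 0.14) and Ms4a6d (4.89 ± 0.19), the lectin receptor Clec4a3 (5.0 ± 0.17), the secreted C1qtnf3 (4.93 ± 0.07), the chemokine Ccl3 (4.92 ± 0.08), and Edil3, a matrix ligand of integrins (4.87 ± 0.13).

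Contractile genes of adult muscle were lower without exception in the myosin and Z-disc lists. All 15 adult myosin and light chain genes were called lower, with a median difference of -1.71 (medians on the 3 OFF3 arrays -1.81, -1.95 and -1.39). The fast IIb heavy chain Myh4, the main myosin of mouse fast fibres, had levels of 13.07, 13.06 and 12.99 on the CTL arrays and 11.99, 11.81 and 12.42 on the OFF3 arrays. The groups did not overlap, and the difference was -0.97 ± 0.12 (limma adjusted p = 1.06e-05). Myh1 (IIx) differed by -0.84 ± 0.08 and Myh2 (IIa) by -1.46 ± 0.12. Myh7, the slow heavy chain, read 11.73, 11.78 and 11.73 on the CTL arrays and 9.53, 9.54 and 8.66 on the OFF3 arrays, with a difference of -2.50 ± 0.18 (limma adjusted p = 6.75e-08). In the fast genes OFF3 replicate 3 was the array nearest control muscle, whereas in Myh7 it was the furthest. The slow light chains went the same way as Myh7, Myl3 reading 11.26, 11.47 and 11.42 on the CTL arrays and 7.05, 7.17 and 6.73 on the OFF3 arrays and Myl2 11.28, 11.27 and 11.22 on the CTL arrays and 7.48, 7.53 and 6.18 on the OFF3 arrays.

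The fast light chain Myl1, at the other end of the list, differed by only -0.28 ± 0.09 (limma adjusted p = 0.0169), and this call was lost without OFF3 replicate 2 (limma adjusted p = 0.0788) or CTL replicate 2 (0.0506) and after quantile normalisation (0.125). For the light chain kinases Mylk2 and Mylk4 the differences were -3.08 ± 0.11 and -2.89 ± 0.14. A limit on the brightest genes is that their levels lay near the top of the arrays. The 202 genes with a CTL level above 12 had a median difference of -0.88. How far a compressed scale lowered the differences of these genes was not tested.

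Thin filament genes were lower in 11 of 12 cases, with a median of -0.89. Acta1, the skeletal actin, had levels of 13.40, 13.45 and 13.47 on the CTL arrays and 13.13, 13.09 and 13.21 on the OFF3 arrays, a difference of -0.30 ± 0.06 (limma adjusted p = 0.00125). The filament-capping tropomodulins Tmod4 and Tmod1 differed by -2.15 ± 0.11 and -1.74 ± 0.19, and the fast troponins Tnni2, Tnnc2 and Tnnt3 by -1.68 ± 0.11, -1.18 ± 0.13 and -0.80 ± 0.07. Tpm3, a tropomyosin with slow muscle and general isoforms, was the exception at 1.36 ± 0.07. Its direction turned with the probe set, being -0.20 for the mean of its probe sets and -2.01 for the probe set of highest variance, so no direction is drawn for it. All 17 Z-disc and titin genes were called lower, with a median of -0.99. Myoz3, a calsarcin of fast fibres, read 11.62, 11.59 and 11.57 on the CTL arrays and 7.95, 7.87 and 8.32 on the OFF3 arrays, a difference of -3.54 ± 0.11 with no overlap. Titin itself (Ttn) differed by -0.88 ± 0.15, Tcap, which binds its end at the Z-disc, by -2.29 ± 0.09, and the filamin Flnc least, by -0.46 ± 0.10.

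Calcium handling followed the contractile lists, with 16 of 19 genes called lower, 2 higher and a median of -1.15. Ryr1, the calcium release channel, had levels of 12.72, 12.81 and 12.77 on the CTL arrays and 10.76, 10.84 and 11.42 on the OFF3 arrays. The difference was -1.76 ± 0.13 (limma adjusted p = 8.88e-08), again with replicate 3 nearest the control range. Pvalb, the calcium buffer of fast fibres, read 13.10, 13.11 and 13.06 on the CTL arrays and 11.63, 11.53 and 12.30 on the OFF3 arrays. Its difference of -1.27 ± 0.40 had the widest error of the muscle genes named here (limma adjusted p = 0.0132). That error also holds the spread of the OFF6 arrays, which read 9.35, 11.25 and 9.34. The junction proteins Jph1 and Jph2, which hold the release site together, differed by -2.15 ± 0.15 and -2.20 ± 0.15, and the calcium-binding protein Hrc by -2.34 ± 0.10. The exceptions were Casq2, the calsequestrin of heart and slow fibres, at 0.90 ± 0.15, and Sln, the calcium pump inhibitor sarcolipin, at 0.70 ± 0.12.

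Among 17 genes of membrane channels and the neuromuscular junction, 11 were called lower and 3 higher, with a median of -1.59. Nos1, the nitric oxide synthase that sits under the fibre membrane, had levels of 9.83, 10.13 and 10.19 on the CTL arrays and 6.16, 6.06 and 6.28 on the OFF3 arrays, a difference of -3.88 ± 0.09 (limma adjusted p = 7.21e-12). The sodium channel subunit Scn4b (-3.64 ± 0.12), the potassium channel Kcna7 (-3.36 ± 0.13), the chloride channel Clcn1 (-3.22 ± 0.14) and the water channel Aqp4 (-3.12 ± 0.11) were lower by similar amounts. Called higher were the junction receptor Lrp4 (0.20 ± 0.07) and the acetylcholine receptor subunits Chrna1 and Chrng, described below with their adult partner. In the dystrophin complex, which links the fibre skeleton to the matrix, 8 of 10 genes were called lower and 1 higher, with a median of -0.66. Dystrophin (Dmd) read 10.85, 10.91 and 10.84 on the CTL arrays and 7.88, 7.77 and 8.68 on the OFF3 arrays, a difference of -2.76 ± 0.17, while the laminin receptor Itga7 stood at 1.79 ± 0.14 and dystroglycan (Dag1) at -0.11 ± 0.09 (not called).

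**Figure D2:**
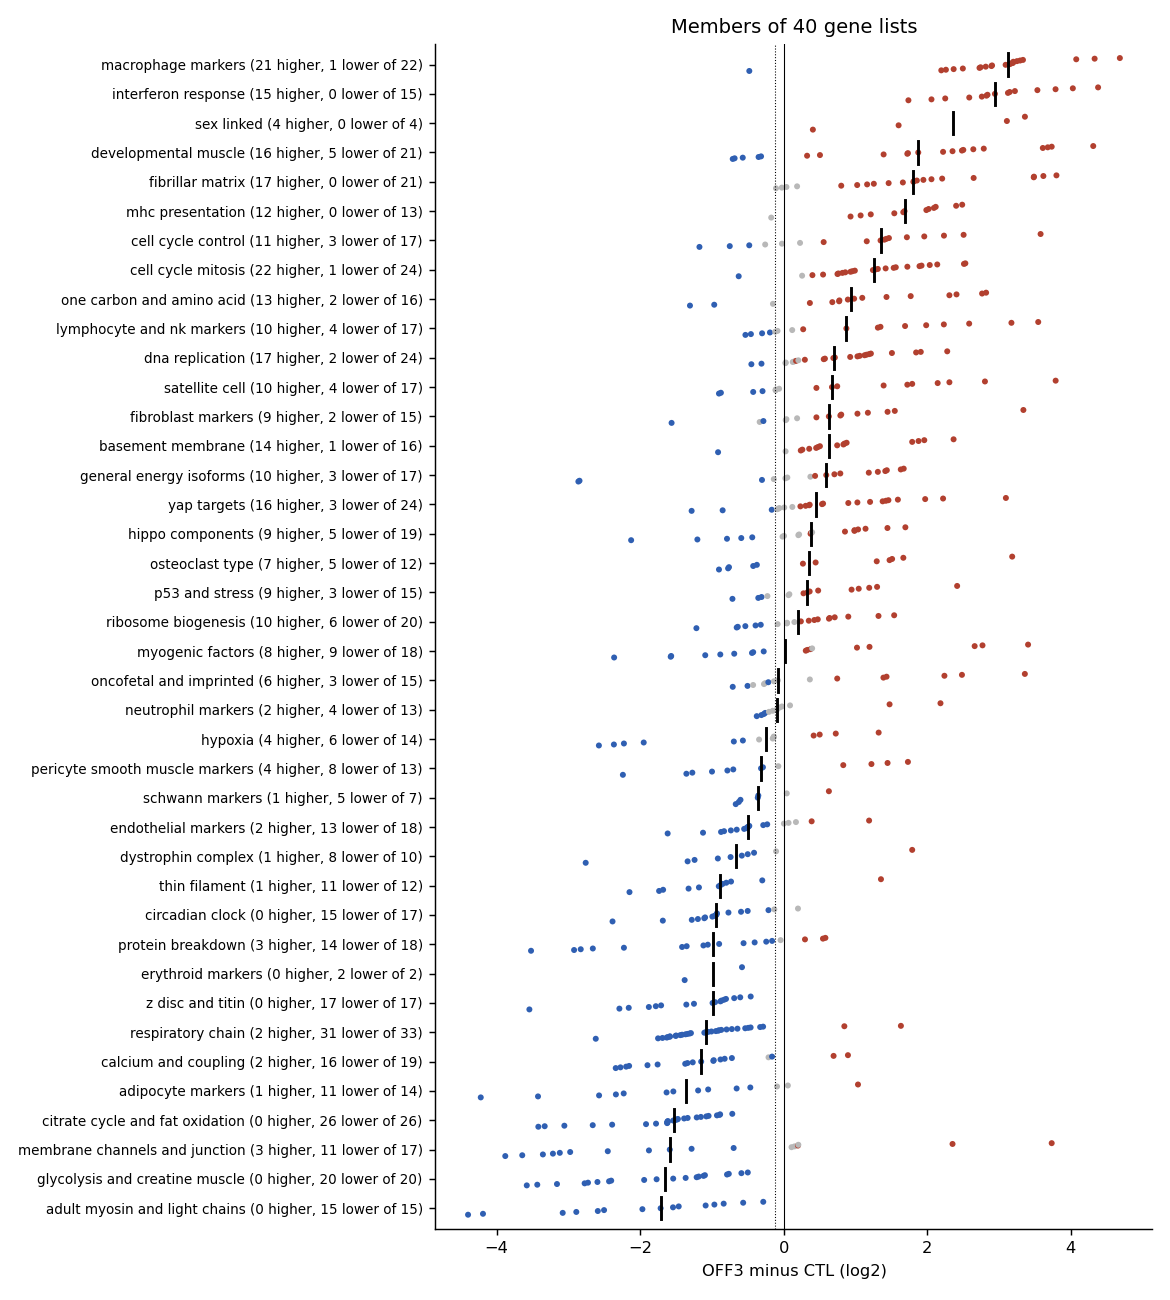
Difference OFF3 minus CTL (log2) of every measured member of 40 gene lists, ordered by the list median, which is the vertical bar. Red points were called higher, blue lower and grey not called, the dotted line marks the median of all genes (-0.12), and the lists run from macrophage markers (median 3.12) at the top to adult myosin and light chains (median -1.71) at the bottom.

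Energy genes of muscle were lower in the same way. All 20 genes of the glycolysis and creatine list were called lower, with a median of -1.66. Slc2a4, which encodes the insulin-responsive glucose transporter GLUT4, had levels of 11.99, 12.02 and 12.03 on the CTL arrays and 9.15, 9.06 and 9.5 on the OFF3 arrays. The difference was -2.77 ± 0.12 (6.84-fold lower, limma adjusted p = 4.65e-10). Phkg1, the muscle phosphorylase kinase subunit that starts glycogen breakdown, differed by -3.43 ± 0.20. The mitochondrial creatine kinase Ckmt2 differed by -3.16 ± 0.17 and the muscle fructose bisphosphatase Fbp2 by -3.58 ± 0.09. Ckm, the cytosolic creatine kinase and one of the brightest genes in muscle, read 13.33, 13.33 and 13.43 on the CTL arrays and 12.49, 12.46 and 12.86 on the OFF3 arrays, a difference of -0.76 ± 0.10 (limma adjusted p = 1.44e-05).

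Mitochondrial genes shifted with less spread between arrays. Of 33 respiratory chain genes, 31 were called lower and 2 higher, with a median of -1.09 and list medians on the OFF3 arrays of -1.09, -1.18 and -1.07. Cox7a1, a heart and muscle subunit of cytochrome oxidase, had levels of 12.41, 12.48 and 12.35 on the CTL arrays and 9.75, 9.80 and 9.84 on the OFF3 arrays. The difference was -2.62 ± 0.07 (limma adjusted p = 1.92e-11), and the groups were far apart. The 2 genes called higher, Cox6a1 (1.63 ± 0.08) and Cox8a (0.85 ± 0.06), are the general isoforms of subunits whose muscle isoforms were lower. All 26 genes of the citrate cycle and fat oxidation were called lower, with a median of -1.52. Ppargc1a, the coactivator of mitochondrial gene expression, read 10.70, 10.90 and 10.82 on the CTL arrays and 7.21, 7.28 and 7.92 on the OFF3 arrays, a difference of -3.33 ± 0.15. The uncoupling protein Ucp3 (-3.42 ± 0.08), the nuclear receptor Ppara (-3.06 ± 0.06) and the lipoprotein lipase Lpl (-2.66 ± 0.14) were lower by comparable amounts, and the fatty acid binding protein Fabp3 stood at -0.72 ± 0.14. The value of Fabp3 depended on the probe set, being -1.49 for the mean of its probe sets and -2.27 for the one of highest variance.

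Where a protein has an adult muscle isoform and a developmental, slow-fibre or general one, the pair mostly split. In 25 pairs with both members measured, the adult isoform was called lower in 25, with a median of -1.37. The counterpart was called higher in 19, lower in 2 and not called in 4, with a median of 1.19. Of the 19, the troponin Tnni1 (0.33 ± 0.11) lost its call with arrays centred on their median and after cyclic loess. It was also lost without OFF3 replicate 3 or CTL replicate 1. The pairs were written from textbook isoforms with earlier results of these data known, so the counts describe them and carry no test. The slow myosin genes Myh7, Myl2 and Myl3 and the slow troponin Tnnt1 were not among the counterparts, and all were called lower. The split therefore does not describe slow-fibre genes in general. Glycogen and purine enzymes gave wide gaps, with AMP deaminase Ampd1 at -2.40 ± 0.16 beside Ampd2 at 1.67 ± 0.09, and phosphorylase kinase Phka1 at -2.60 ± 0.15 beside Phka2 at 1.19 ± 0.06. In creatine kinase, the brain form Ckb read 9.51, 9.24 and 9.18 on the CTL arrays and 10.98, 11 and 10.85 on the OFF3 arrays, a difference of 1.63 ± 0.09 against -0.76 ± 0.10 for Ckm. In cytochrome oxidase, Cox6a2 stood at -1.63 ± 0.13 and Cox6a1 at 1.63 ± 0.08. Both members were lower for the actins Acta1 and Actc1 (-0.57 ± 0.10) and for Cox7a1 and Cox7a2 (-0.49 ± 0.05), and Slc2a1 (0.05 ± 0.11), Fbp1 (0.37 ± 0.18), Aldoc (-0.14 ± 0.11) and Atp2a2 (-0.21 ± 0.11) were not called.

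**Figure D3:**
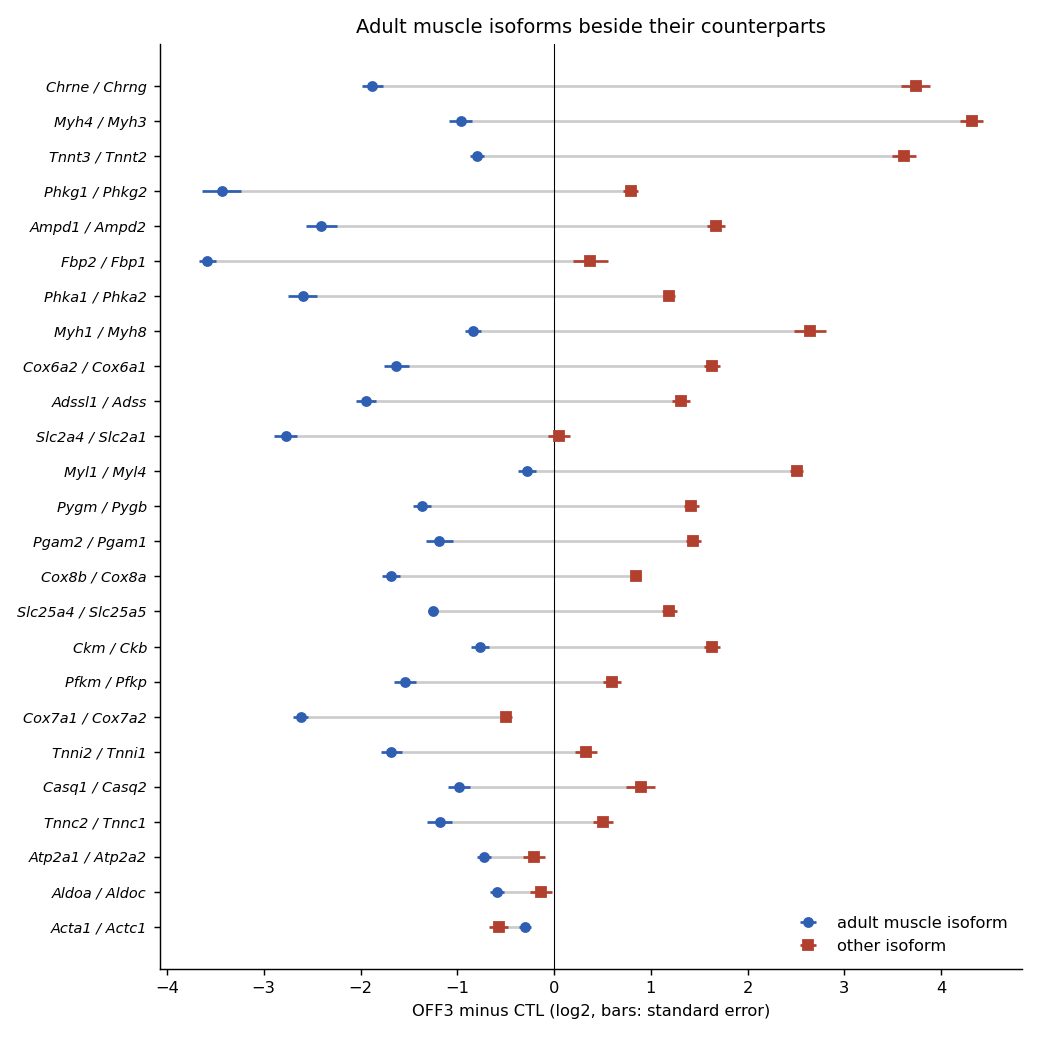
Difference OFF3 minus CTL (log2, bars are the standard error, 3 arrays against 3) of the adult muscle isoform (blue circle) and its counterpart (red square) in 25 pairs, ordered by the gap between the members. The blue circles all lie below 0, while 21 of the squares lie above 0, and Chrne and Chrng at the top are 5.61 apart.

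The acetylcholine receptor gave the widest gap. Chrne encodes the epsilon subunit of the receptor at adult nerve contacts, and Chrng the gamma subunit that fills its place in fetal and denervated muscle. Chrne had levels of 9.51, 9.27 and 9.08 on the CTL arrays and 7.42, 7.59 and 7.20 on the OFF3 arrays, a difference of -1.88 ± 0.11 (limma adjusted p = 9.11e-09). Chrng had levels of 6.58, 6.26 and 6.25 on the CTL arrays and 10.08, 10.14 and 10.08 on the OFF3 arrays, a difference of 3.74 ± 0.15 (13.3-fold higher, limma adjusted p = 2.6e-10). The groups did not overlap in either gene, in opposite directions. The alpha subunit Chrna1, shared by both receptor types, differed by 2.35 ± 0.10. The promoters of this opposed pair are shown because both hold the E-box letters that MyoD family factors are known to bind. The windows are 300 bases at the RefSeq start of transcription on GRCm38.p6, most of them before it, printed 5′ to 3′ on the gene's strand with the E-box CAGCTG in capitals. Chrne lies at chr11:70619145-70619444 on the minus strand and Chrng at chr1:87205561-87205860 on the plus strand.
Chrne: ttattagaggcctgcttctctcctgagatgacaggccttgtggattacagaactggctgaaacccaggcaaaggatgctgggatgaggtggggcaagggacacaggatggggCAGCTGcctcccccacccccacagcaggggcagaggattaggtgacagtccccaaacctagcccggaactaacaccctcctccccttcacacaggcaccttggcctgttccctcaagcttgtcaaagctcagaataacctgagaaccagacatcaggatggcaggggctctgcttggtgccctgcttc
Chrng: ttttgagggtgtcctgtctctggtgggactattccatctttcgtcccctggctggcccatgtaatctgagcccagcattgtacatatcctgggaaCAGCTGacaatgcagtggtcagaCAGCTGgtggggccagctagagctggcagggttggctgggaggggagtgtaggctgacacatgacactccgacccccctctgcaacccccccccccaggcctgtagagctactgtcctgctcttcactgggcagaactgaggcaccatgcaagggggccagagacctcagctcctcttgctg
Chrne held 1 match and Chrng 2, so the same letters stood before a gene that was lower and one that was higher. Over the 6 muscle lists of contractile, membrane and glycolytic genes (100 measured genes, 72 with a promoter window), CAGCTG was found in 39 of 94 windows (41.5%), against 16.3% of all 32851 windows. CATTCC, the MCAT letters that TEAD factors bind, was found in 21 of the 94 (22.3%), against 14.7%. Each motif was searched on both strands and counted on its own, whether or not it overlapped another. A match describes letters in the window, not a bound site.

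The developmental muscle program was the part of the muscle genes that lay above adult muscle. Of 21 genes, 16 were called higher and 5 lower, with a median of 1.88 (OFF3 arrays 1.87, 1.82 and 1.94). Embryonic myosin Myh3 read 6.74, 7.04 and 7.03 on the CTL arrays and 11.25, 11.18 and 11.33 on the OFF3 arrays. The 3 day 3 arrays lay within a narrow range far above control, a difference of 4.32 ± 0.12 (19.9-fold, limma adjusted p = 1.48e-11). Perinatal myosin Myh8 had levels of 8.20, 7.76 and 7.68 on the CTL arrays and 10.54, 10.39 and 10.64 on the OFF3 arrays, a difference of 2.64 ± 0.17. The cardiac and embryonic troponin Tnnt2 differed by 3.61 ± 0.13 and the embryonic light chain Myl4 by 2.50 ± 0.07. Both genes of the fusion machinery were higher, the fusion protein Mymk (myomaker) reading 8.43, 8.24 and 8.39 on the CTL arrays and 12.11, 12.11 and 11.88 on the OFF3 arrays, a difference of 3.68 ± 0.15, and its partner Mymx (myomerger) differing by 1.88 ± 0.10. Actc1, the cardiac actin of embryonic muscle, went the other way, with levels of 13.03, 13.04 and 13.04 on the CTL arrays and 12.56, 12.52 and 12.31 on the OFF3 arrays and a difference of -0.57 ± 0.10. Dlk1 (-0.71 ± 0.16), Csrp3 (-0.68 ± 0.14), the slow troponin Tnnt1 (-0.35 ± 0.13) and desmin Des (-0.32 ± 0.09) were the other members called lower.

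**Figure D4:**
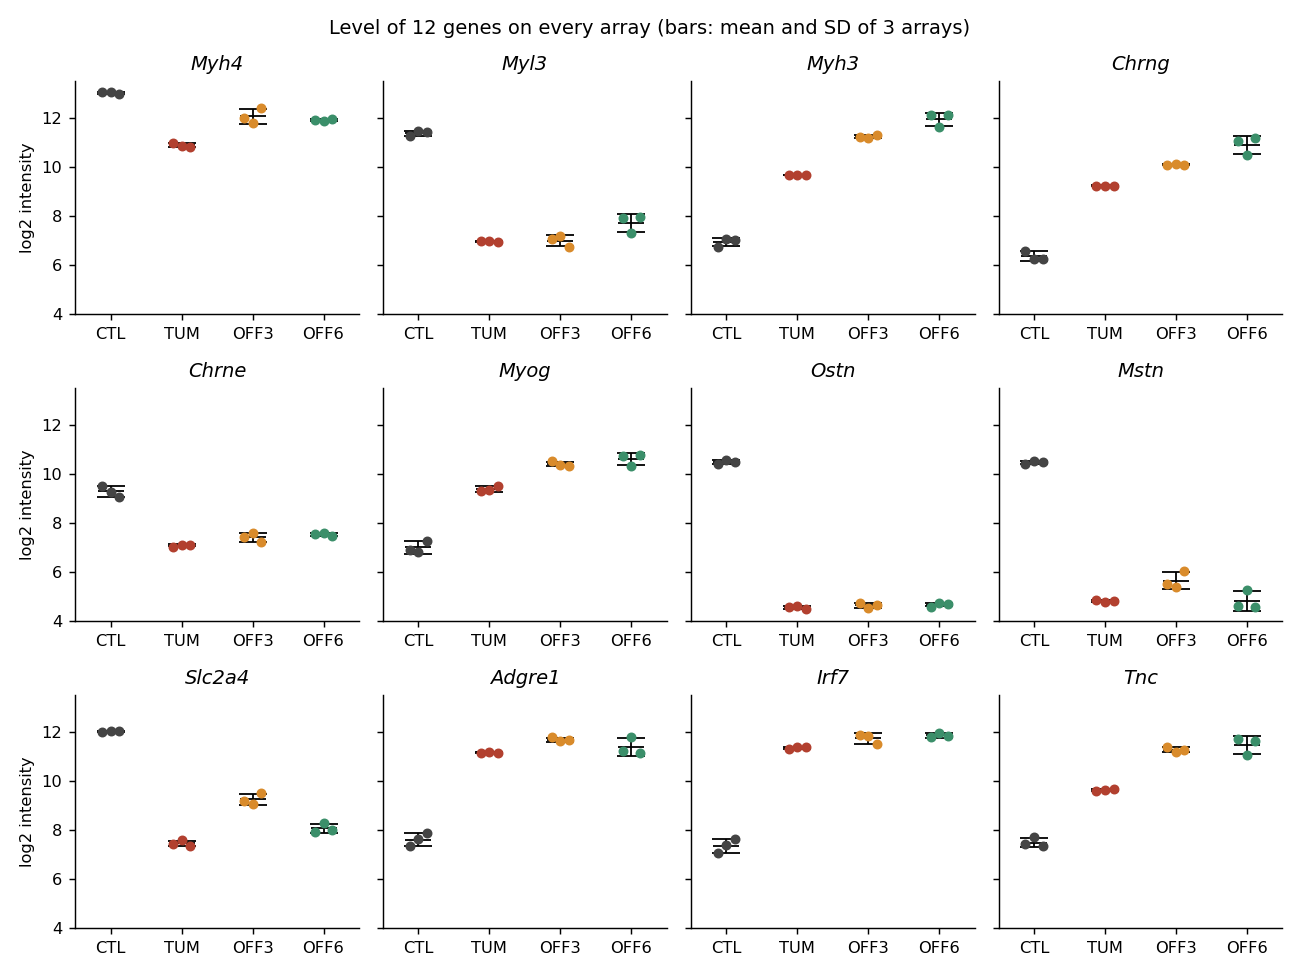
Level (log2 intensity, vertical axis from 4) of 12 genes on each of the 12 arrays by group (CTL control muscle, TUM day 0, OFF3 day 3, OFF6 day 6), with points for arrays and bars for the mean and SD of 3 arrays. Myh3 on the OFF3 arrays lies between 11.18 and 11.33 against 6.74 to 7.04 on the CTL arrays, and Ostn between 4.53 and 4.72 against 10.42 to 10.56.

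The MyoD family did not move as a block. Of 18 myogenic factor genes, 8 were called higher (44.4%) and 9 lower (50%), against 28.4% and 41.4% of all genes. The median of 0.02 changed sign with several scalings. With arrays centred on their median 5 were called higher. Myog, which drives the last step of differentiation, had levels of 6.90, 6.80 and 7.28 on the CTL arrays and 10.51, 10.37 and 10.33 on the OFF3 arrays, a difference of 3.41 ± 0.14 (10.6-fold, limma adjusted p = 2.85e-10). Myf5, the factor of early precursors whose locus drives Cre in these mice, read 5.99, 6.08 and 6.18 on the CTL arrays and 8.84, 8.70 and 8.70 on the OFF3 arrays, a difference of 2.66 ± 0.08. Myod1 differed by 1.02 ± 0.17. Myf6 (MRF4), the member most tied to adult fibres, was lower at -1.57 ± 0.11. The cofactor Vgll2 (-2.36 ± 0.08), Eya1 (-1.57 ± 0.07) and Mef2c (-1.09 ± 0.10) were lower too, and Id2, an inhibitor of MyoD-type factors, was higher (2.77 ± 0.09).

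Pax7, the factor that marks quiescent satellite cells, had levels of 7.69, 7.42 and 7.41 on the CTL arrays and 7.12, 7.09 and 7.04 on the OFF3 arrays, a difference of -0.42 ± 0.08 (limma adjusted p = 0.000609). Among 17 satellite cell genes, 10 were called higher and 4 lower, with a median of 0.67. The lower count was 7 after quantile normalisation and with arrays centred on their median. The highest, Vcam1 (3.79 ± 0.11) and Cxcr4 (2.81 ± 0.16), encode an adhesion molecule and a chemokine receptor that immune and endothelial cells also make. Fgfr4, a growth factor receptor of myoblasts (2.15 ± 0.16), and the myoblast cadherin Cdh15 (1.72 ± 0.12) were higher as well. Calcr, the calcitonin receptor of quiescent satellite cells, was lower (-0.90 ± 0.09).

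Division genes lay above control muscle 3 days after the inducer was stopped. Of 24 mitosis genes, 22 were called higher and 1 lower, with a median of 1.26. On the OFF3 arrays the list medians were 1.52, 1.30 and 0.83, replicate 3 being lowest. Mki67, the proliferation marker Ki-67, read 6.42, 6.43 and 6.53 on the CTL arrays and 8.57, 8.61 and 8.30 on the OFF3 arrays, a difference of 2.04 ± 0.12 (4.10-fold, limma adjusted p = 6.1e-09). Cdk1, the kinase that starts mitosis, had levels of 6.5, 6.38 and 7.33 on the CTL arrays and 8.97, 8.82 and 8.85 on the OFF3 arrays, with a difference of 2.14 ± 0.18 (limma adjusted p = 2.99e-07). CTL replicate 3 was the highest control array in Cdk1 and in Top2a, the DNA-untangling topoisomerase (5.44, 5.68 and 6.47 on the CTL arrays and 8.73, 8.43 and 8.02 on the OFF3 arrays, a difference of 2.53 ± 0.22), and it too lay below all OFF3 arrays. For Top2a the mean of its probe sets gave a smaller difference, 1.32. The exception was the mitotic kinase Aurka, at -0.63 ± 0.11 with levels of 8.03, 7.99 and 7.94 on the CTL arrays and 7.53, 7.29 and 7.27 on the OFF3 arrays.

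The promoter of Cdk1 is shown for a motif that many mitosis genes share, the cell cycle homology region (CHR) letters TTTGAA, in capitals. The RefSeq window is chr10:69352863-69353162 on the minus strand of GRCm38.p6, 5′ to 3′.
Cdk1: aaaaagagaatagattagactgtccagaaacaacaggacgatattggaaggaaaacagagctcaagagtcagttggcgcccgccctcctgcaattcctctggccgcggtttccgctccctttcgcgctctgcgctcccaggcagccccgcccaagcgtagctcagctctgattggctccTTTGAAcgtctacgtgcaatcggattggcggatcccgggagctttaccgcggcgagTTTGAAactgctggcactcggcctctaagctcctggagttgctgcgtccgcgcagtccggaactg
It held 2 matches. TTTGAA on either strand was found in 16 of the 21 windows of the mitosis list (76.2%), against 17.9% of all windows. The 21 windows belonged to 20 of the list's 24 genes, and 15 genes held a match.

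DNA replication genes were higher in 17 of 24 cases and lower in 2, with a median of 0.70. The helicase subunits Mcm6 (2.28 ± 0.11) and Mcm4 (1.51 ± 0.10), the nucleotide-making Rrm2 (1.91 ± 0.18) and Tyms (1.85 ± 0.09) led, while Rfc4 stood at -0.45 ± 0.14 and the licensing factor Cdc6 at 0.03 ± 0.15 (not called). Of 17 cell cycle control genes, 11 were called higher and 3 lower, with a median of 1.35. Ccnd1, the G1 cyclin D1, had levels of 9.02, 8.95 and 9.32 on the CTL arrays and 11.32, 11.38 and 11.29 on the OFF3 arrays, a difference of 2.23 ± 0.09. Its kinase Cdk6 read 6.79, 7.16 and 7.12 on the CTL arrays and 10.64, 10.65 and 10.53 on the OFF3 arrays, a difference of 3.58 ± 0.09 (limma adjusted p = 9.34e-12). The inhibitor gene Cdkn2a, which encodes p16 and ARF, was also higher, with levels of 6.90, 6.92 and 6.87 on the CTL arrays and 9.40, 9.39 and 9.43 on the OFF3 arrays and a difference of 2.51 ± 0.07. Drivers and an inhibitor of division were thus both above adult muscle, and the cyclin Ccne2 was below it (-1.17 ± 0.10).

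Growth and biosynthesis lists differed in how far they stood above control muscle. Myc, the growth-promoting transcription factor, had levels of 8.53, 8.74 and 8.77 on the CTL arrays and 9.82, 9.62 and 9.31 on the OFF3 arrays, a difference of 0.90 ± 0.12 (1.87-fold, limma adjusted p = 2.11e-05). In ribosome biogenesis, 10 of 20 genes were called higher and 6 lower, with a median of 0.19 that fell to 0.02 with arrays centred on their median. Npm1 (1.54 ± 0.09) and Nop58 (1.32 ± 0.08) were highest and the processing factor Rrp12 lowest (-1.22 ± 0.15). Genes of serine, folate and amino acid metabolism were called higher in 13 of 16 cases and lower in 2, with a median of 0.94. The asparagine synthetase Asns (2.82 ± 0.17), the amino acid transporter Slc7a5 (2.77 ± 0.17) and the serine synthesis enzyme Psat1 (2.41 ± 0.13) led, while the cytosolic Shmt1 was lower (-1.31 ± 0.11).

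Genes that YAP1 is known to switch on were mostly, but not all, above adult muscle. Among 24 YAP and TAZ target genes, 16 were called higher and 3 lower, with a median of 0.45 that was 0.28 with arrays centred on their median, where 5 were called lower. Ccn1 (Cyr61), a classic target, read 9.45, 9.55 and 9.66 on the CTL arrays and 9.91, 9.87 and 9.80 on the OFF3 arrays, a difference of 0.31 ± 0.07 (1.24-fold). The call for Ccn1 was lost with arrays centred on their median. Ccn2 (Ctgf) had levels of 10.25, 10.24 and 10.25 on the CTL arrays and 11.28, 11.16 and 11 on the OFF3 arrays, a difference of 0.90 ± 0.07. Ankrd1, which is also a stretch-responsive muscle gene, had levels of 7.98, 8.04 and 8.26 on the CTL arrays and 10.47, 10.23 and 10.26 on the OFF3 arrays, a difference of 2.22 ± 0.16 (4.67-fold, limma adjusted p = 7.91e-08). Myof, a membrane repair protein of the ferlin family that myoblasts make, was highest (3.10 ± 0.10), and Axl, a receptor kinase, stood at 1.59 ± 0.09. Crim1 was lowest (-1.28 ± 0.15).

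The endogenous mouse gene Yap1 had levels of 9.43, 9.59 and 9.67 on the CTL arrays and 9.52, 9.61 and 9.59 on the OFF3 arrays, with a difference of 0.01 ± 0.07 (95% interval -0.15 to 0.16, not called). The transgene is human, and what this mouse probe set reads of it was not tested. Of 19 Hippo components, 9 were called higher and 5 lower, with a median of 0.38 that was 0.11 after quantile normalisation. The kinase adaptor Mob1a (1.70 ± 0.11) and the TEAD cofactor Vgll3 (1.45 ± 0.07) were higher. The YAP-binding scaffolds Amot (-2.13 ± 0.07) and Amotl1 (-1.20 ± 0.12), and Tead1 (-0.79 ± 0.09), were lower.

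Fetal growth genes were split. Of 15 oncofetal and imprinted genes, 6 were called higher and 3 lower, with a median of -0.08 that turned positive after quantile normalisation and loess and was -0.25 with arrays centred on their median. The lower count was 8 after that centring, and 5 after quantile normalisation, with array weights or without OFF3 replicate 3. Igf2, the fetal growth factor, had levels of 9.48, 9.61 and 9.63 on the CTL arrays and 12.04, 12.07 and 12.07 on the OFF3 arrays, a difference of 2.49 ± 0.07 (5.60-fold, limma adjusted p = 2.89e-11). Mest (3.36 ± 0.13) and Peg3 (1.43 ± 0.09), imprinted genes of the growing embryo, were higher too. Hmga2, a chromatin protein of embryonic and tumour cells, read 7.25, 7.37 and 7.29 on the CTL arrays and 9.54, 9.60 and 9.49 on the OFF3 arrays, a difference of 2.24 ± 0.06. The RNA-binding proteins Igf2bp1 and Lin28b, both made in fetal tissue, were not called, with Igf2bp1 at -0.13 ± 0.08 and Lin28b at -0.08 ± 0.05. The OFF3 and CTL levels of Igf2bp1 were all between 5.47 and 5.78.

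Matrix genes were mostly above adult muscle. Of 21 fibrillar matrix genes, 17 were called higher and 0 lower, with a median of 1.81 and list medians on the OFF3 arrays of 1.84, 1.76 and 1.77. Col1a1, the main fibrillar collagen chain, had levels of 10.63, 10.78 and 10.78 on the CTL arrays and 12.69, 12.73 and 12.62 on the OFF3 arrays, a difference of 1.95 ± 0.07 (3.86-fold, limma adjusted p = 1.75e-10). Tnc (tenascin C), a matrix protein of embryos and healing wounds, read 7.41, 7.68 and 7.32 on the CTL arrays and 11.39, 11.17 and 11.26 on the OFF3 arrays, a difference of 3.80 ± 0.15. Postn (periostin) differed by 3.62 ± 0.10, the collagen cross-linking enzyme Lox by 3.49 ± 0.09 and Col12a1 by 3.49 ± 0.09. The 4 members of the list that were not called were Dcn (decorin) at 0.04 ± 0.15, Dpt at 0.19 ± 0.21, Fmod at -0.11 ± 0.07 and Eln (elastin) at -0.03 ± 0.11.

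Basement membrane and integrin genes were called higher in 14 of 16 cases and lower in 1, with a median of 0.63. The fibronectin receptor subunit Itga5 (2.37 ± 0.12), Nid2 (1.96 ± 0.09) and the laminin chain Lamb1 (1.88 ± 0.08) were highest. Lamb2, the laminin chain of synapses and adult muscle, was lower (-0.91 ± 0.08), beside the higher Lamb1. Fibroblast markers were called higher in 9 of 15 cases and lower in 2, with a median of 0.63. Their summed linear intensity ran from 21694 to 22535 on the CTL arrays and from 29973 to 31946 on the OFF3 arrays. Pdgfra, the defining receptor of muscle fibroblasts, stood at 0.03 ± 0.20 (not called) and S100a4, which macrophages also make, at 3.34 ± 0.14. The part of fibroblast number in the matrix values was not tested.

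Macrophage markers were the list furthest above control muscle. Of 22 genes, 21 were called and at least 2-fold higher and 1 was called lower, with a median of 3.12 (8.70-fold; OFF3 arrays 3.14, 3.12 and 3.02). Their summed intensity was 6322 to 7223 on the CTL arrays and 52666 to 54677 on the OFF3 arrays. Csf1r, the receptor that macrophages need to survive, had levels of 8.64, 8.68 and 8.75 on the CTL arrays and 11.66, 11.64 and 11.47 on the OFF3 arrays, a difference of 2.90 ± 0.15 (limma adjusted p = 2.97e-09). Adgre1, which encodes the F4/80 antigen, read 7.31, 7.61 and 7.87 on the CTL arrays and 11.77, 11.61 and 11.65 on the OFF3 arrays, a difference of 4.08 ± 0.16. The pore-forming Mpeg1 had the largest difference of the list, 4.69 ± 0.14, with levels of 6.96, 6.99 and 7.49 on the CTL arrays and 11.91, 11.78 and 11.80 on the OFF3 arrays. Cd163, a scavenger receptor of resident macrophages, went against the list, with levels of 6.67, 7.05 and 7.01 on the CTL arrays and 6.56, 6.51 and 6.23 on the OFF3 arrays and a difference of -0.48 ± 0.19 (limma adjusted p = 0.042). That call was lost on leaving out any one of the OFF3 arrays (limma adjusted p = 0.135 without replicate 3), CTL replicate 2 or CTL replicate 3, and after cyclic loess. The part of macrophages in the values of other genes that macrophages make was not tested.

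Other blood cell markers were less uniform. Of 17 lymphocyte and NK genes, 10 were called higher and 4 lower (2 lower after quantile normalisation or loess), with a median of 0.87. Ptprc (CD45), carried by all white blood cells, had levels of 7.01, 6.70 and 6.97 on the CTL arrays and 10.45, 10.39 and 10.48 on the OFF3 arrays, a difference of 3.55 ± 0.13. Cd4, which some dendritic cells also make, read 6.30, 6.25 and 6.14 on the CTL arrays and 9.68, 9.73 and 8.82 on the OFF3 arrays, with replicate 3 lowest of the OFF3 arrays and a difference of 3.18 ± 0.22. The defining genes of T and B cells did not follow, Cd3e at -0.53 ± 0.09, Cd3d at -0.30 ± 0.09, Cd79a at -0.46 ± 0.11 and Ms4a1 (CD20) at -0.19 ± 0.06. NK and cytotoxic genes were higher, Nkg7 at 2.59 ± 0.17, Gzmb at 2.23 ± 0.20 and the NK receptor Ncr1 at 1.99 ± 0.25. The neutrophil list had 2 of 13 called higher (15.4%) and 4 lower (30.8%), against 28.4% and 41.4% of all genes. The lower count was 10 with arrays centred on their median, 7 with array weights, 1 after quantile normalisation and 0 after cyclic loess. The granule protein genes Camp (-0.37 ± 0.09), Elane (-0.31 ± 0.08) and Ltf (-0.26 ± 0.07) were called lower by small amounts on the deposited scale. The calcium-binding S100a8 (-0.15 ± 0.08) and S100a9 (-0.20 ± 0.12) were not called, and Csf3r (2.19 ± 0.17) and Mmp9 (1.48 ± 0.23) were higher, both of which macrophage-lineage cells also make.

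The list of osteoclast-type genes, a macrophage-lineage set, had 7 of 12 called higher and 5 lower, with a median of 0.36. The lower share (41.7%) lay near that of all genes (41.4%). Acp5, the tartrate-resistant acid phosphatase, had levels of 7.22, 7.28 and 7.80 on the CTL arrays and 10.65, 10.66 and 10.55 on the OFF3 arrays, a difference of 3.19 ± 0.13. The proton pump subunit Atp6v0d2 (1.67 ± 0.15) and the RANK receptor Tnfrsf11a (1.51 ± 0.14) were higher, and Nfatc1, the lineage's transcription factor, was lower (-0.77 ± 0.09).

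Interferon response genes were higher throughout. All 15 were called and at least 2-fold higher, with a median of 2.95 (OFF3 arrays 3.11, 3.05 and 2.72). Irf7, the transcription factor that amplifies the response, had levels of 7.05, 7.36 and 7.63 on the CTL arrays and 11.87, 11.84 and 11.48 on the OFF3 arrays, a difference of 4.38 ± 0.13 (20.9-fold, limma adjusted p = 2.89e-11). Ifit1, an antiviral RNA-binding protein, read 7.0, 7.54 and 7.60 on the CTL arrays and 11.23, 11.12 and 11.16 on the OFF3 arrays, a difference of 3.79 ± 0.13. Cxcl10, a chemokine switched on by interferon, had levels of 7.22, 6.53 and 7.96 on the CTL arrays and 11.33, 11.38 and 11.11 on the OFF3 arrays, with a difference of 4.03 ± 0.25. The CTL arrays of Cxcl10 were spread more widely than the OFF3 arrays, and none reached them. The smallest of the 15 differences was that of Irf9, 1.74 ± 0.08.

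The promoters of Ifit1 and Cxcl10 are shown for the interferon-stimulated response element (ISRE), searched on both strands as GAAA, any pair of bases and again GAAA, in capitals. A match in Ifit1 reads on the opposite strand. The RefSeq windows on GRCm38.p6 are chr19:34640639-34640938 on the plus strand for Ifit1 and chr5:92348840-92349139 on the minus strand for Cxcl10, 5′ to 3′.
Ifit1: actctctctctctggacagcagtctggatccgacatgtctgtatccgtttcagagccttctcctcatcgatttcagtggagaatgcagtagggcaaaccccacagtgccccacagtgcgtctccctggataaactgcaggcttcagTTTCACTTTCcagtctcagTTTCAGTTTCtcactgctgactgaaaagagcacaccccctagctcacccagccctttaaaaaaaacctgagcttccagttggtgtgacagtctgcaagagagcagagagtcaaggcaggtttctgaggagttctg
Cxcl10: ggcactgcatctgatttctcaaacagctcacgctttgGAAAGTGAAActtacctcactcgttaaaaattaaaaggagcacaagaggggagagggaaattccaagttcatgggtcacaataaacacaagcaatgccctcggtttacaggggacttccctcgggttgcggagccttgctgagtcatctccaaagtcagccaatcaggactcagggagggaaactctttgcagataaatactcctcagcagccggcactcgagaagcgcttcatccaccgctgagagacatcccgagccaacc
Ifit1 held 2 matches and Cxcl10 1. The letters were found in 7 of 16 windows of the interferon list (43.8%), against 3.44% of all windows. The 16 windows belonged to 12 of the list's 15 genes, and 7 genes held a match.

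Antigen presentation genes moved the same way, with 12 of 13 called higher and 0 lower and a median of 1.68. The peptide transporter Tap1 (2.49 ± 0.08), the immunoproteasome subunit Psmb8 (2.40 ± 0.12) and the class II chains H2-Aa (2.12 ± 0.11) and H2-Ab1 (2.10 ± 0.13) were highest. Nlrc5, the class I transactivator, was not called at -0.17 ± 0.13 on its brightest probe set, and another choice of probe set gave 2.64. Class II genes are made by macrophages and other antigen-presenting cells, and the part of those cells was not tested.

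Vessel and fat markers were below control muscle. Of 18 endothelial genes, 13 were called lower and 2 higher, with a median of -0.50 and summed intensities of 12414 to 12732 on the CTL arrays and 10452 to 11341 on the OFF3 arrays. The VEGF receptor Flt1 had levels of 9.96, 10.01 and 10.01 on the CTL arrays and 8.43, 8.40 and 8.29 on the OFF3 arrays, a difference of -1.62 ± 0.06. The VEGF receptor Kdr differed by -0.51 ± 0.08. Pecam1, the endothelial adhesion molecule that white blood cells also carry, was at 9.36, 9.36 and 9.36 on the CTL arrays and 9.40, 9.32 and 9.37 on the OFF3 arrays, a difference of 0.00 ± 0.08 (95% interval -0.17 to 0.18, not called). Cd93, which myeloid cells share, was higher (1.19 ± 0.12).

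Of 14 adipocyte genes, 11 were called lower and 1 higher, with a median of -1.36 and summed intensities of 18642 to 19802 against 10211 to 12365. Retn (resistin) read 9.82, 9.97 and 9.93 on the CTL arrays and 5.49, 5.69 and 5.86 on the OFF3 arrays, a difference of -4.22 ± 0.12 (18.7-fold lower). Adiponectin (Adipoq) differed by -2.57 ± 0.27 and the lipid droplet protein Plin4 by -3.42 ± 0.14, while the transcription factor Cebpa, also active in macrophages, was higher (1.04 ± 0.16). Among pericyte and smooth muscle genes, 8 of 13 were called lower (61.5%) and 4 higher (30.8%), against 41.4% and 28.4% of all genes. The potassium channel partner Abcc9, shared with muscle fibres, was lowest (-2.24 ± 0.11) and the smooth muscle actin Acta2, also a gene of developing muscle and activated fibroblasts, highest (1.73 ± 0.06). Schwann cell genes were called lower in 5 of 7 cases and higher in 1. The lower count was 2 without OFF3 replicate 1, and 3 without CTL replicate 1, after quantile normalisation or after loess. Their summed intensity was higher in OFF3 (4134 to 4844) than in CTL (3047 to 3260), and the gene called higher was Pmp22 (0.63 ± 0.12), which other cells also make. Both measured red cell genes were lower, Alas2 by -1.38 ± 0.13 and Slc4a1 by -0.58 ± 0.08.

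Muscle-specific breakdown genes were below control muscle. Of 18 protein breakdown genes, 14 were called lower and 3 higher, with a median of -0.98. Trim63 (MuRF1), the ubiquitin ligase of muscle atrophy, had levels of 10.52, 10.71 and 10.73 on the CTL arrays and 7.77, 7.90 and 7.80 on the OFF3 arrays, a difference of -2.83 ± 0.11 (7.10-fold lower). Another atrophy ligase, Fbxo32 (atrogin-1), differed by -1.42 ± 0.10, and the fibre-specific Klhl38 by -3.52 ± 0.10. The general proteases Capn2 (0.58 ± 0.07) and Ctsl (0.55 ± 0.06) were higher. In the p53 list, 9 of 15 genes were called higher and 3 lower, with a median of 0.33 that fell to 0.16 with arrays centred on their median. Mdm2, the p53-induced ligase that limits p53, read 9.95, 10.28 and 10.45 on the CTL arrays and 12.71, 12.63 and 12.59 on the OFF3 arrays, a difference of 2.42 ± 0.12 (5.35-fold, limma adjusted p = 2.63e-09), and the receptor Eda2r stood at 1.30 ± 0.12. Ccng1 was lower (-0.71 ± 0.07).

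Hypoxia genes were split, 4 of 14 called higher (28.6%) and 6 lower (42.9%), with a median of -0.25. Both shares lay near those of all genes (28.4% and 41.4%). Vegfa, the vessel growth factor, had levels of 10.85, 10.95 and 10.97 on the CTL arrays and 8.49, 8.42 and 8.76 on the OFF3 arrays, a difference of -2.37 ± 0.08, and the glycolytic regulator Pfkfb3 differed by -2.58 ± 0.13. Hif1a, the oxygen-responsive factor itself, was higher (1.32 ± 0.07). All called clock genes, 15 of 17, were lower, with a median of -0.94. Rora had levels of 10.75, 10.89 and 10.75 on the CTL arrays and 8.33, 8.43 and 8.48 on the OFF3 arrays, a difference of -2.39 ± 0.12, and the core factor Arntl (BMAL1) differed by -1.10 ± 0.08. The clock genes Dbp and Per1 differed by -1.11 ± 0.08 and -0.94 ± 0.07. The hour of tissue collection was not analysed here, and its part was not tested.

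Sex-linked genes also differed. The Y-linked Uty read 4.84, 4.56 and 4.71 on the CTL arrays and 8.26, 7.87 and 8.07 on the OFF3 arrays, a difference of 3.36 ± 0.23, and Eif2s3y and Kdm5d differed by 3.11 ± 0.19 and 1.6 ± 0.12. Xist, the X-inactivation RNA of female cells, was high in both groups, with levels of 10.70, 10.85 and 10.81 on the CTL arrays and 11.16, 10.96 and 11.46 on the OFF3 arrays and a difference of 0.41 ± 0.12. The call for Xist did not hold with arrays centred on their median, after loess or with array weights. The part of the sex of donors and hosts in other genes was not tested.

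The other tumour groups are set beside day 3 here as values only, since all are measured from the same CTL arrays. For adult myosin and light chains the list median of TUM minus CTL was -2.98, of OFF3 minus CTL -1.71 and of OFF6 minus CTL -1.14. In the mitosis list these medians were 3.21, 1.26 and 1.12, and in the developmental muscle list 1.52, 1.88 and 2.40. For YAP targets they were 1.40, 0.45 and 0.62, for fibrillar matrix 1.17, 1.81 and 1.55, and for the citrate cycle and fat oxidation -1.58, -1.52 and -1.37. The interferon and macrophage medians were 2.86 and 2.97 at day 0 and 3.15 and 2.85 at day 6, beside 2.95 and 3.12 at day 3. Over all genes, the median differences from CTL were -0.15 for TUM, -0.12 for OFF3 and -0.09 for OFF6. Day 6 and day 3 themselves differed in 2080 genes (10.4%) by the same fit. The day 6 values include OFF6 replicate 2, which lay close to the day 3 arrays. Its mean correlation with them was 0.995, against 0.988 and 0.989 for OFF6 replicates 1 and 3.

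**Figure D5:**
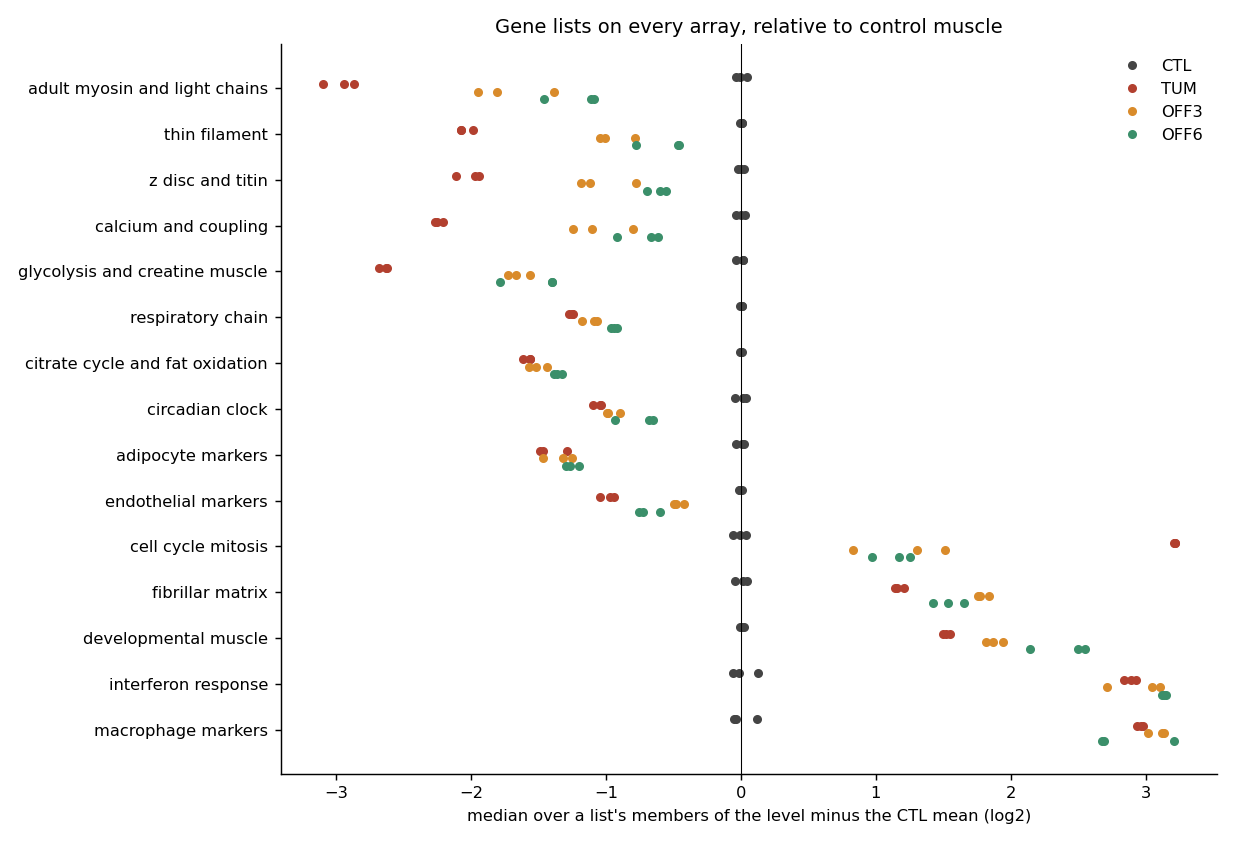
Median over a list's members of the level minus the CTL mean (log2, horizontal axis) on each of the 12 arrays, for 15 gene lists, with CTL arrays in black, TUM in red, OFF3 in orange and OFF6 in green. In adult myosin and light chains the OFF3 arrays lie at -1.81, -1.95 and -1.39, and in cell cycle mitosis at 1.52, 1.30 and 0.83, between the CTL and TUM arrays in both lists.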

How the data were processed

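Total RNA (Trizol, then RNeasy columns) was made into biotin-carrying cRNA and read on mouse Affymetrix arrays, per the labels. The authors deposited a linear intensity per probe set, for which the submitters' processing notes name RMA, a method that corrects background, scales arrays and summarises probes. Its version is not given in the sources used here. Scanner files were not used here.

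Of 34760 probe sets, 21640 carried 1 gene symbol, 1321 several and 11799 none. Only the first kind was used, and the brightest probe set was kept for the 954 genes that had several, which left 19937 genes with no filter on low values. Log2 was taken with no pseudocount. No detection calls were used. The precision is limited by the number of arrays, with a median standard error of 0.086 at 12.2 degrees of freedom.

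In R 4.3.3, limma 3.58.1 (lmFit and then eBayes, both at default settings) fitted 1 mean for each of the 4 groups over the 12 arrays, beside the packages data.table (1.17.8) and statmod (1.5.0). Tests were two-sided with Benjamini-Hochberg adjustment, threshold 0.05. Unadjusted, 14483 genes had p under 0.05. On simulated data of 19937 genes the fit recovered 76.1%, 95.5% and 100% of genes changed 1.5-, 2- and 4-fold (67, 67 and 66 genes), 0 with the wrong sign, with 2.69% of calls false. The simulation changed few genes, with independent normal noise and no shift in array scaling, whereas 69.8% of genes were called in the data. Its rates therefore do not carry over to this comparison. Figures used Python 3.11.15 and matplotlib 3.10.9.

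The members, the 40 lists (691 genes, 644 measured, 22 in more than 1 list) and the isoform pairs were chosen with earlier results of these data known, so no list carries a test. Genes were named by rule: 30 measured genes of a preset list of 31, the 12 largest differences each way among called genes with non-overlapping arrays, leaving out predicted genes and genes of small RNAs, up to 4 members of each list with the largest difference plus its largest exception and the member nearest 0, both genes of each pair, and the 8 brightest genes within 1.5-fold. Other list members were named after their values were seen. The rule's protein sequences were not used here and promoters were shown in their place. Promoters came from RefSeq.

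The 22 alternatives covered probe set choice, filters, pseudocount, scaling, variance, weights, block, thresholds and arrays left out. Whether replicate numbers pair the samples was checked, and same-numbered CTL and OFF3 deviations had r from -0.39 to -0.12, so the numbers were not used as pairs.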

Additional observations from a re-analysis of the deposited data

Results flagged for a closer look

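Day 6 and day 3 tumours differed from control muscle by unequal amounts in 16 of the 30 genes of the preset naming list, by the test of OFF6 minus OFF3 in the same limma fit. Over all genes the share called was 10.4%. The naming list was chosen, not drawn at random, so its count carries no test. OFF6 replicate 2 lay at -6.45 on the third principal component and the other day 6 arrays at 26.3 and 26.0. The OFF3 arrays lay at -16.9, -13.6 and -15.1, so OFF6 replicate 2 was nearer to them, and each value is also given without it. All 16 were called either way, while the number of genes called rose from 2080 to 4874 without it. The 16 had been picked as called with that array, and the other preset genes were not retested without it. That the 16 kept their calls therefore carries no test.

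Among muscle genes, the difference OFF6 minus OFF3 was 1.40 (1.61 without that array) for perinatal Myh8 and 0.70 (0.86) for embryonic Myh3. For slow Myh7 it was 0.97 (1.05), for Myh2 0.58 (0.59) and for Myh1 0.32 (0.36). Cardiac actin Actc1 differed by 0.38 (0.50) and Myod1 by 0.65 (0.94), and Myh2, Myh1 and Myh7 stood below control muscle at both times. Actc1 stood at -0.57 from control muscle on day 3 and at only -0.19 on day 6. On the day 6 arrays Actc1 read 12.59 in replicate 2 and 12.95 and 12.98 in replicates 1 and 3. In Pvalb the difference was -1.84 (-2.48), with OFF6 replicate 2 at a level of 11.25 and replicates 1 and 3 at 9.35 and 9.34. Ckm differed by -0.44 (-0.49). The growth-linked genes were Igf2 at 0.47 (0.56), Ankrd1 at 0.92 (1.17), Ccn2 at 0.33 (0.29) and Hmga2 at -0.44 (-0.46). The collagen gene Col1a1 differed by -0.40 (-0.47), the macrophage receptor Csf1r by -0.66 (-0.90) and endothelial Pecam1 by -0.28 (-0.39).

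Probe sets without a gene symbol lay outside the comparison of genes. Tested in a fit of all 34760 probe sets together, 2596 of these 11799 were higher in OFF3 than in CTL and 2690 lower. Of the 21640 probe sets from which the genes were taken, 6096 were higher and 8478 lower in the same fit. Both shares were thus smaller among probe sets without a symbol. The cause was not tested.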

How the results depend on the processing

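Of 280 named genes 247 were called, 233 of them with the same call under every alternative other than the stricter rules (adjusted p under 0.01 and treat), and 175 under every alternative in which the gene was tested (all probe sets together gave counts only). Testing all probe sets gave 9086 higher, 3460 at least 2-fold higher and 17850 within 1.5-fold. Keeping genes above the median level gave 8165 called, 3470 lower, 6 at least 16-fold lower and 3253 within 1.5-fold, and above the lower quartile 5719 within 1.5-fold, with fewer genes tested in both. A pseudocount of 32, which shrinks folds of dim genes, left 24 at least 16-fold higher and 3 lower, and centring arrays on their median gave 19 at least 16-fold lower (the cause was not tested). With treat at a minimum of 2-fold, 2585 were called, 1588 higher and 997 lower. Tpm3 reversed to -0.20 for the mean of its probe sets and -2.01 for the most variable one. The neutrophil list median (-0.09) reversed to 1.83 among genes above the median level, 0.021 after quantile normalisation and 0.062 after cyclic loess (the cause was not tested). The replicate block gave 5596 higher and 7841 lower. The labels do not say whether the numbers pair the samples.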
